A study of Mus musculus with 3 samples.

Results

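The mRNAs of the cytosolic translation factors of mouse macrophages were measured as a set of 73 genes, out of 55536 annotated genes in the deposited tables. A gene belonged to the set when it had a protein-coding transcript in the deposited transcript tables and a symbol of the initiation factors (Eif1 to Eif6, without the Eif2ak kinases), the elongation factors (Eef1 and Eef2), the release factors Etf1 and Gspt1, or the cytoplasmic poly(A)-binding proteins (Pabpc). Only symbols and transcript types entered the rule, although the set was proposed with earlier results of these data known. The set also holds 5 methyltransferases of elongation factors, the kinase Eef2k and the inhibitors of the cap-binding protein, because their symbols begin in the same way.

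The RNA came from the cytosolic fraction of bone marrow-derived macrophages of the C57BL/6J strain, which are primary cells grown from marrow progenitors. Every culture had been stimulated with 100 ng/ml Lipid A, the part of bacterial lipopolysaccharide that Toll-like receptor 4 recognises, for 40 minutes. Ribosomal RNA was depleted, and 3 libraries were made from 1 µg of RNA each. The labels number them as biological replicates 1 to 3 under a single donor record and give no sex or age, so p-values measure library-to-library spread only, and this may be technical. Unstimulated cells and other fractions were not analysed here, and no value below is a response to Lipid A.

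Translation of a capped mRNA begins with eIF4F, in which eIF4E holds the cap, eIF4G is the scaffold and eIF4A is an RNA helicase. eIF2 brings the initiator tRNA to the small ribosomal subunit, eIF2B recharges eIF2 with GTP, and the many-subunit complex eIF3 ties the subunit to eIF4G. eEF1A then delivers each aminoacyl-tRNA and eEF2 moves the ribosome along. In macrophages, signalling through mTORC1 and the MNK kinases is known to act on eIF4E and its inhibitors at the protein level, which mRNA levels do not show.

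The libraries held 37861150, 37136495 and 58889061 estimated gene counts. Levels are given in TPM, a share of all transcripts that is corrected for length. Protein-coding genes took 32.8%, 36.2% and 23.5% of the TPM in replicates 1, 2 and 3, and the deposited TPM of 59 of the 64 factors at 1 TPM or more was lowest in replicate 3. The libraries also differed in nuclear RNA, with Malat1 at 291, 264 and 898 TPM and Neat1 at 27.8, 16.9 and 77.8, both highest in replicate 3. Xist and Kcnq1ot1, other long nuclear RNAs, were lowest in replicate 2 and highest in replicate 3. All 8 macrophage markers lay between 25.7 and 5974 TPM. Of 22 markers of neutrophils, lymphocytes, dendritic cells, mast cells, fibroblasts and erythroid cells, only the neutrophil gene S100a8 (12.7 TPM) exceeded 1 TPM, and Ly6g and Cd3e were at 0.

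Most of the factors were expressed, many of them at high levels. In all, 64 of the 73 reached a mean of 1 TPM, or 87.7%, against 43.1% of 22015 nuclear protein-coding genes. Of these, 43 reached 10 TPM and 8 reached 100 TPM, and 19 stood in the top 10% of detected protein-coding genes, which began at 41.7 TPM. The median over all 73 was 20.1 TPM, and over the 64 it was 23.2 TPM against 6.15 TPM for all detected protein-coding genes. Together the factors took 1.58%, 1.97% and 1.54% of protein-coding TPM in the 3 libraries. In bulk RNA, fewer expressing cells and less RNA per cell cannot be told apart.

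The elongation factors held the largest share, 59.4% of the set's TPM, and Eef1a1 alone held 43.0%, 49.9% and 40.7% in replicates 1, 2 and 3. Eef1a1, which encodes the carrier of aminoacyl-tRNA, measured 2226, 3558 and 1477 TPM and ranked 11 among protein-coding genes. Its neuronal and muscle paralogue Eef1a2 gave 0, 1 and 3 counts. Eef2, the translocase, followed at 376, 417 and 245 TPM, and the ranges of Eef1a1 and Eef2 did not overlap. Eif5a, the hypusine-bearing factor that helps ribosomes through difficult peptide bonds, measured 124, 206 and 104 TPM. Its paralogue Eif5a2 stayed near 2 TPM, at 1.98, 2.22 and 1.61. The subunits of the nucleotide exchanger of eEF1A differed, with Eef1b2 at 142 ± 32.8 TPM, Eef1g at 89.0 ± 12.1 and Eef1d at 36.1 ± 7.34 (SD, n = 3). Eef2k, the kinase that inactivates eEF2, had 8.97 ± 0.932 TPM, and Eef1e1, a scaffold protein of tRNA synthetases, had 2.41 ± 0.529 (SD, n = 3).

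Among the factors of start-codon selection, Eif1, which guards against initiation at wrong codons, was far above the others at 265, 362 and 202 TPM. Its paralogue Eif1b measured 21.6, 22.2 and 16.5 TPM. Eif5, which activates GTP hydrolysis by eIF2, had 43.0 ± 5.42 TPM and Eif5b, which joins the subunits, had 14.5 ± 1.92 (SD, n = 3). The eIF1A genes Eif1a and Eif1ax had means of 22.5 and 7.51 TPM, and the related Eif1ad had 4.81.

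**Figure D1:**
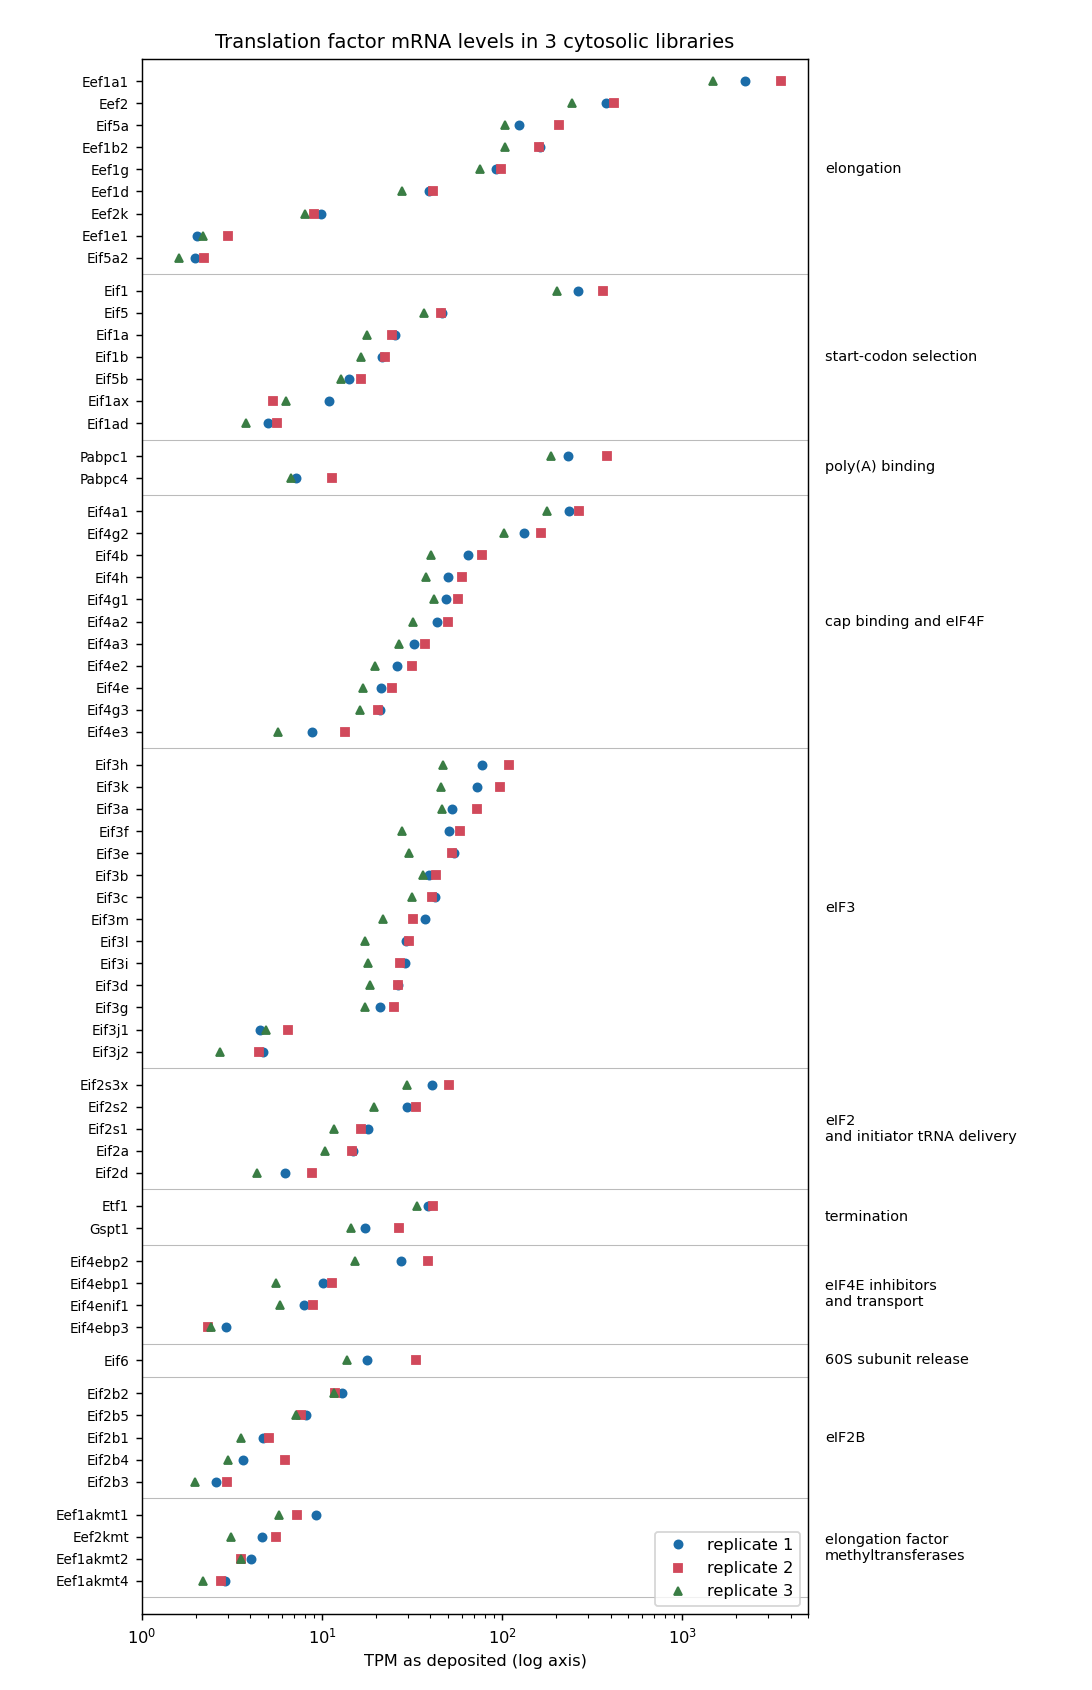
Deposited TPM (log axis) of the 64 factors with a mean of at least 1 TPM, one row per gene, grouped by role, with one symbol for each of the 3 libraries. Eef1a1 stands alone above 1000 TPM, and replicate 3 (triangles) is the lowest library for 59 of the 64 genes.

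In the cap-binding group, the helicase Eif4a1 and the scaffolds Eif4g2 and Eif4g1 were above the cap-binding protein Eif4e in each library, and the scaffold Eif4g3 was below it. Eif4a1 measured 234.8, 268 and 176 TPM, whereas its paralogue Eif4a2 measured 43.5, 50.3 and 32.2 and the exon-junction helicase Eif4a3 measured 32.5, 37.2 and 26.6. Eif4e, the cap-binding subunit, had 21.4, 24.5 and 16.9 TPM, and Eif4e2, a cap-binding relative that represses translation, had 26.2, 31.4 and 19.7. The ranges of the last pair overlapped, although Eif4e was the lower of both in each library. Among the scaffolds, Eif4g2, which lacks the eIF4E-binding region, led with 132, 165 and 102 TPM, above Eif4g1 at 48.9, 56.7 and 42.1 and Eif4g3 at 20.9, 20.4 and 16.3. The helicase partners Eif4b and Eif4h had 60.7 ± 18.8 and 49.3 ± 11.3 TPM (SD, n = 3). Eif4e3, another cap-binding relative, had 8.83, 13.4 and 5.67 TPM.

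Of the inhibitors of eIF4E, Eif4ebp2 was the highest, at 27.4, 38.8 and 15.2 TPM. Eif4ebp1 measured 10.1, 11.4 and 5.53 TPM, so Eif4ebp2 was higher in each of the 3 libraries. Eif4ebp3 had 2.56 ± 0.326 TPM (SD, n = 3), but 501 of its 744 exonic bases lie in the same-strand gene AC115631.1, and its reads could have been divided between them. The eIF4E transporter Eif4enif1 had 7.59 ± 1.57 TPM (SD, n = 3).

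The 12 stable subunits of eIF3, which are equimolar in the complex, spanned 3.7-fold in mean TPM. Eif3h was the highest at 77.7, 108.9 and 46.9 TPM and Eif3g the lowest at 20.9, 24.9 and 17.3, with a median over subunits of 38.9 TPM. Eif3k (71.7 ± 25.5), Eif3a (57.1 ± 13.3), Eif3f (45.7 ± 15.9) and Eif3e (45.6 ± 13.2) lay above that median (TPM, SD, n = 3). Eif3b and Eif3c lay near it with 39.5 and 38.3 TPM, and Eif3m, Eif3l, Eif3i and Eif3d below it with 30.5, 25.7, 24.6 and 23.8. On the log2(TPM + 1) scale the distance from the highest to the lowest subunit was 1.85, 2.08 and 1.39 in the 3 libraries. The loosely bound eIF3j is encoded by the near-identical genes Eif3j1 (5.29 TPM) and Eif3j2 (3.95 TPM), between which reads could have been divided arbitrarily. Eif3j1 also shares 1107 of its 5830 exonic bases with the antisense gene Spg11 (10.1 TPM), and Eif5b of the start-codon group shares 1643 of 9753 with Rev1 (3.39 TPM).

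The 3 subunits of eIF2 were unequal. Eif2s3x, the X-linked gamma subunit, measured 40.6, 50.6 and 29.6 TPM, Eif2s2 (beta) 29.8, 33.2 and 19.6, and Eif2s1 (alpha, the target of the stress kinases) 17.9, 16.5 and 11.6. This order held in each library. The Y-linked gamma gene Eif2s3y had 0 counts in all 3, and Xist measured 3.69, 1.29 and 5.27 TPM. The sex of the cells was not tested. The 5 subunits of eIF2B were lower, from Eif2b2 at 12.1 ± 0.689 TPM and Eif2b5, the catalytic subunit, at 7.63 ± 0.485 down to Eif2b3 at 2.51 ± 0.498 (SD, n = 3). Eif2b1 and Eif2b4 had 4.43 and 4.28 TPM. The alternative initiator-tRNA carriers Eif2a and Eif2d had 13.3 and 6.45 TPM.

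At the ends of the message, Pabpc1, which coats the poly(A) tail, measured 233, 381 and 187 TPM and Pabpc4 7.18, 11.4 and 6.69. The release factors Etf1, which reads stop codons, and Gspt1, its GTPase partner, had 37.9 ± 3.80 and 19.5 ± 6.37 TPM (SD, n = 3). Eif6, which keeps free large subunits from joining, measured 17.8, 33.2 and 13.8 TPM. The 4 detected methyltransferases lay between 2.60 TPM (Eef1akmt4) and 7.45 TPM (Eef1akmt1). The 9 genes below 0.1 TPM were Eef1a2, Pabpc1l (4 counts, all in replicate 1), and 7 genes with 0 counts in every library, namely Eif4e1b, Pabpc2, Pabpc4l, Pabpc5, Pabpc6, Eef1akmt3 and Eif2s3y. A count of 0 allows up to 3 counts, or 0.0792, 0.0808 and 0.0509 CPM (counts scaled to library size) in replicates 1, 2 and 3. These limits cover counting error only.

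Ordered by TPM rescaled to a common protein-coding total per library, 57 of the 63 neighbouring pairs among the 64 detected factors overlapped in range. The 6 steps without overlap were Eef1a1 over Eef2, Eef2 over Eif1, Eif4a1 over Eif5a, Eif4g2 over Eef1g, Eef1d over Eif4a3, and Eif1ad over Eif2b1. The order within the rest of the list is therefore not resolved between neighbours.

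The distances between related factors varied to unlike degrees between the libraries, and pairs of unrelated genes were not examined for comparison. Eif4a1 exceeded Eif4a2 by 2.41 ± 0.014 on the log2(TPM + 1) scale, with 2.41, 2.39 and 2.42 in the 3 libraries. Eif4g1 exceeded Eif4g3 by 1.31 ± 0.122 and Eif4g2 exceeded Eif4g1 by 1.397 ± 0.131. Eef1b2 exceeded Eef1d by 1.94 ± 0.078. Larger distances separated Eif5a from Eif5a2 (5.58 ± 0.375), Pabpc1 from Pabpc4 (4.80 ± 0.172) and Eif1 from Eif1b (3.69 ± 0.243). Eif4e minus Eif4e2 was -0.28 ± 0.065 per length and 0.005 on counts without correction for length, where the direction is lost. Eif3j1 minus Eif3j2 changed sign between libraries (-0.04, 0.45 and 0.66) and was -0.61 in the second transcript table. With 3 libraries, a two-sided exact sign test of such a difference cannot give a p below 0.25, so these differences are descriptions.

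**Figure D2:**
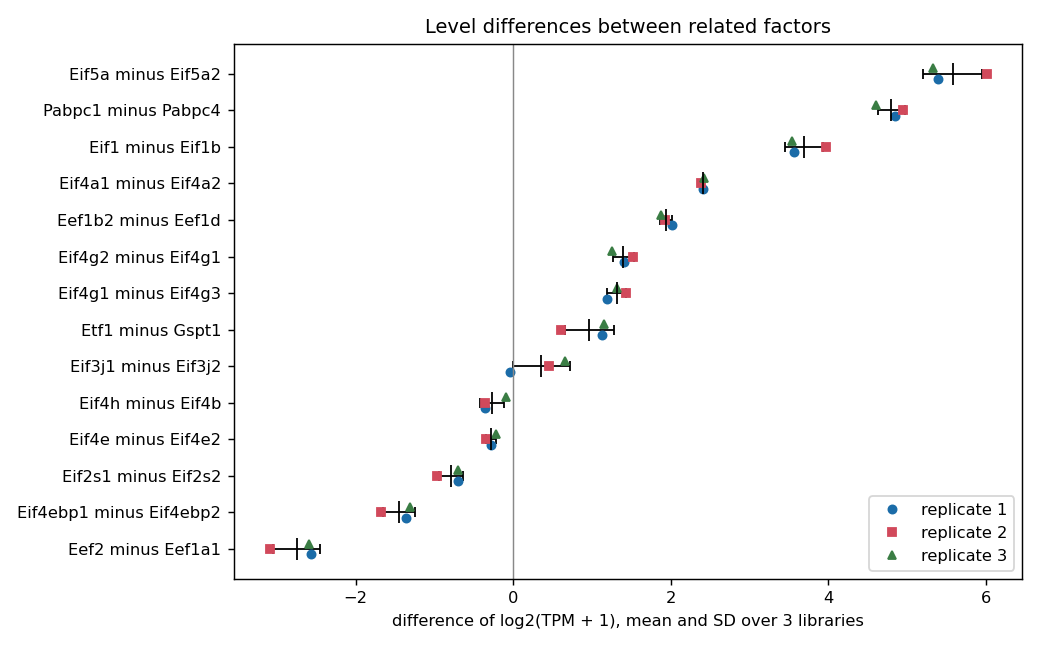
Difference in log2(TPM + 1) between related factors, with one symbol per library and a bar for the mean ± SD over 3 libraries, for 14 of 16 pairs (the 2 pairs with a partner at 0 to 3 counts are left out). The difference between Eif4a1 and Eif4a2 varied least, and of the 14 pairs the Eif3j1 and Eif3j2 pair alone crossed 0.

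No factor was called for varying between the libraries more than is usual for genes of its level. edgeR's goodness-of-fit test compared each gene with a dispersion trend estimated from the same 3 libraries. Variation that is usual at a given level is therefore not called, and a factor not called need not be constant. Adjusted over 12250 genes, the test called 0 of the 64 factors tested, against 1.71% of all genes tested and 0.806% of protein-coding genes. The count of factors was also 0 with each library left out in turn. At an unadjusted p under 0.05 the test picked 2 factors (3.13%), against 6.15% of all genes tested and 4.46% of protein-coding genes. These were Eif4e3 (edgeR, adjusted p = 0.478) and Eif3h (edgeR, adjusted p = 0.793). The median SD of log2 CPM over the 3 libraries was 0.141 for the factors, 0.161 for all genes tested and 0.152 for protein-coding genes. In simulated data of this size, the test found 25 of 100 genes changed 2-fold in 1 library and 91 of 100 changed 4-fold, so shifts near 2-fold could have been missed.

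The steadiest of the abundant factors was Eif4a1, with an SD of 0.019 in log2 CPM, and the least steady factor was Eif4e3, at 0.359. The 12 eIF3 subunits lay between -0.106 and 0.332 from their own means in replicate 2 and between -0.315 and 0.193 in replicate 3. The eIF4E inhibitors and transporter spread as far in replicate 3, from -0.313 to 0.255. The median SD of the eIF3 subunits was 0.167, near the 0.161 of all genes tested. In replicate 3, Eif3f, Eif3h, Eif3k, Eif3e, Eif3l and Eif3m were below their own means by 0.315, 0.304, 0.245, 0.206, 0.184 and 0.106 on the log2 scale. Eif3i, Eif3d, Eif3c and Eif3g lay between -0.082 and 0.064, and Eif3a and Eif3b were 0.153 and 0.193 above their means. Eif4ebp2 fell by 0.313 from its mean in that library and Eef1a1 by 0.193. These genes were picked after their values were seen, and none of the shifts passed the adjusted test. The median shifts of 76 cytosolic ribosomal protein genes, also examined after the data were seen, were 0.138, -0.015 and -0.112 in replicates 1, 2 and 3, against -0.028, 0.017 and 0.004 for the 64 factors. The nuclear RNAs Malat1, Neat1, Xist and Kcnq1ot1 were all highest in replicate 3. All 4 were called in the spread test, against 1.71% of all genes tested. Their adjusted p was 9.85e-17, 1.29e-14, 5.13e-13 and 9.9e-08 (edgeR). The part of nuclear RNA carry-over in the shifts of the factors and ribosomal protein genes was not tested.

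**Figure D3:**
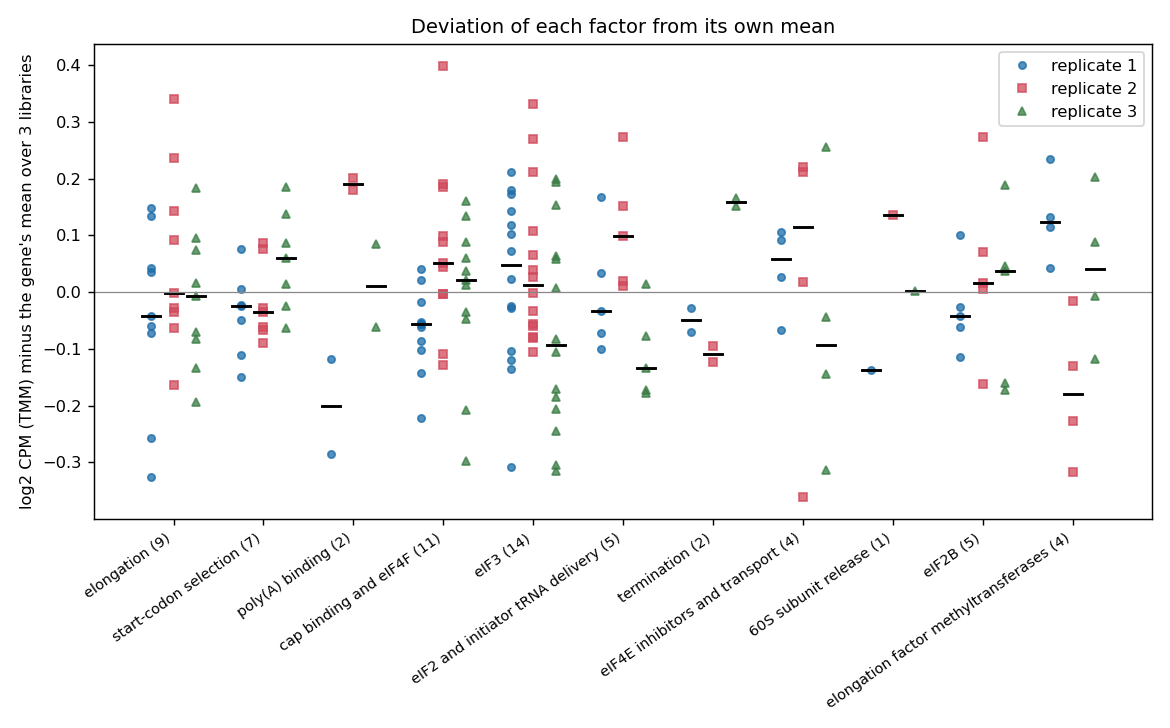
Deviation of each of the 64 factors from its own mean over the 3 libraries, in log2 CPM after TMM scaling, grouped by role (number of genes in brackets), with black bars for group medians. All deviations lie within 0.4, and the lowest in replicate 3 are Eif3f at -0.315 and Eif4ebp2 at -0.313.

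The second transcript table, made from the reads without the genome alignments, gave similar levels once both tables were on a common scale. After both tables were scaled to the same protein-coding total, 0 of 65 factors differed 2-fold in all 3 libraries, against 1.11% of 10937 protein-coding genes. The median difference was -0.03 on the log2 scale. With TPM as deposited, before that scaling, 25 of 64 factors differed 2-fold in all 3 libraries. The share of all protein-coding genes was not counted at that setting, so the 25 cannot be read as a trait of the factors. The largest differences concerned Eif4e1b, the oocyte form of eIF4E, which was listed at 0 in the first table and at 0.631, 0.987 and 1.94 rescaled TPM in the second, Eif4ebp3 and the Eif3j genes. The second table placed Eif3j1 and Eif4ebp3 at -0.50 each and Eif3j2 at 0.78 from the first, as means on the log2 scale, and reads of these genes could have been divided with another gene, as above.

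A minority of factors placed much of their TPM in transcripts that GENCODE annotates as targets of nonsense-mediated decay, the pathway that destroys mRNAs with a premature stop codon, or as retaining an intron. Over the set, these types held 3.32%, 2.35% and 4.04% of TPM, against 5.11 ± 0.634% for all protein-coding genes, but Eef1a1 dominates the sum and without it the share was 5.39 ± 1.00% (SD, n = 3). In 6 of the 64 factors (9.38%) they held at least 20% of the gene's mean TPM in both transcript tables. The same held for 8.71% of 9477 protein-coding genes at 1 TPM or more, so the count itself was near the background.

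Eif4a2 was the extreme case, with 71.4%, 58.2% and 81.8% of its TPM in such transcripts in the first table and 58.5%, 50.04% and 68.3% in the second. Its most abundant transcript, Eif4a2-210 (1737 bases, 10 exons), is itself annotated for decay. In the paralogue Eif4a1, the protein-coding main transcript held 95.5%, 88.95% and 94.6% of TPM in the first table and 92.6%, 73.8% and 83.2% in the second. Eif4a2-210 lacks a 140-base coding exon of the principal transcript Eif4a2-201. Since 140 is not a multiple of 3, the reading frame shifts across the new junction. The whole reading frame of Eif4a2-210, counted from its start codon, closes after 97 codons, with 6 exon junctions behind the stop codon. Transcripts that skip this exon held 51.7%, 36.0% and 52.5% of Eif4a2 TPM in the first table and 37.0 ± 8.57% in the second (SD, n = 3). The skipped exon (chr16:23109120-23109259, plus strand, mm10) is shown in capitals with 12 bases of the neighbouring exons, followed by the end of the shortened reading frame of Eif4a2-210 (chr16:23110005-23110079), with its stop codon in capitals.
Skipped exon of Eif4a2: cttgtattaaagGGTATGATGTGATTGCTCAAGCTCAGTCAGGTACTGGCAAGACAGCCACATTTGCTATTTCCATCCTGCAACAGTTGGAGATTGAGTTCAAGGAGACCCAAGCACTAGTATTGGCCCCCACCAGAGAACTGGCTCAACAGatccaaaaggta
Premature stop of Eif4a2-210: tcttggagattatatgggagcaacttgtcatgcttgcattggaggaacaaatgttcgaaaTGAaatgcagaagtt

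A second route to an early stop was also present in Eif4a2. Transcripts with a 107-base exon (chr16:23112351-23112457, plus strand) that the principal transcript lacks held 27.9%, 26.6% and 30.0% of Eif4a2 TPM in the first table and 25.7%, 27.2% and 25.7% in the second. This share varied less between libraries than the share that skips the 140-base exon. The exon brings a stop codon into frame within its first bases in Eif4a2-204, which is annotated for decay, and the stretch that runs from the exon before it (chr16:23111844-23112372, spliced) is shown with the stop codon in capitals. A transcript annotated as protein-coding, Eif4a2-224, carries the same exon and is not counted in the decay share above. The gene also holds 5 snoRNA genes, and reads from incompletely spliced RNA there cannot be told apart from retained-intron transcripts.
Premature stop of Eif4a2-204: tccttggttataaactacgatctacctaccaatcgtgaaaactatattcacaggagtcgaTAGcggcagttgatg

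Eef1b2, the abundant exchange factor of eEF1A, was the other gene whose most abundant transcript is annotated for decay. Eef1b2-205 (691 bases) held 40.8%, 44.7% and 47.1% of the gene's TPM in the first table and 45.1%, 48.5% and 51.9% in the second, and the coding transcript Eef1b2-209 (681 bases) held 40.3%, 44.4% and 35.9% in the first. The reading frame of Eef1b2-205 closes after 68 codons in its exon 3, with 3 junctions behind the stop. That junction-spanning stretch (chr1:63177828-63178464, plus strand, mm10, spliced) is shown with the stop codon in capitals.
Premature stop of Eef1b2-205: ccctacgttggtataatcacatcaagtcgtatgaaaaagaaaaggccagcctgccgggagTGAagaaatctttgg

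The other 4 of the 6 had a protein-coding main transcript in the first table. Retained-intron transcripts led in Eif2b2, where the decay and retained-intron share was 40.2%, 26.4% and 62.2%, and in Eif1ax, where it was 59.2%, 0% and 35.7% in the first table. In Eif1ax, the 416-base Eif1ax-202 accounted for all of it, and in the second table this transcript held 66.0%, 26.2% and 56.8% of the gene's TPM, the larger share in replicates 1 and 3. The share was 24.2%, 42.8% and 31.2% in Eef1akmt2, led by a decay transcript, and 16.1%, 7.80% and 61.2% in Eif2a. In Eif2a the decay transcript Eif2a-207 led in the first table (16.0%, 0% and 40.5%) and the retained-intron transcript Eif2a-203 in the second (5.05%, 23.5% and 16.9%). For Eif1ax, Eif2a and Eif2b2, replicate 2 was the lowest of the 3 in the first table, and the library values spanned more than 30 percentage points, which makes their means uncertain. Eif5b was the gene on which the tables differed most in this respect, with 0.778%, 5.62% and 0.861% in the first table and 37.5%, 55.5% and 48.6% in the second, where the 690-base retained-intron transcript Eif5b-205 led.

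**Figure D4:**
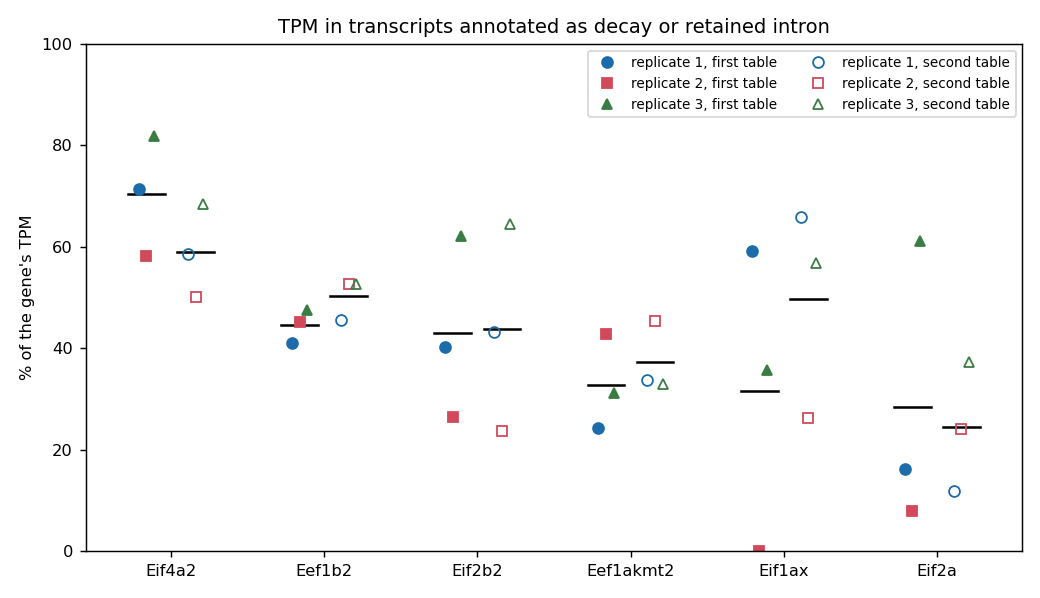
Percentage of each gene's TPM in transcripts annotated for nonsense-mediated decay or as retaining an intron, for the 6 factors with at least 20% in both tables, by library (filled symbols for the first transcript table, open for the second, black bars for means). Eif4a2 and Eef1b2 stay above 40% in every library and table, and Eif1ax reaches 0 in replicate 2 of the first table.

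Short transcripts made up part of the library differences in several of the highest factors. In 16 of the 64 factors, a transcript under 1000 bases other than the main one held at least 20% of the gene's TPM in at least 1 library, and its share was highest in replicate 2 in 9 of them. For 13 of the 16, both tables put the highest share in the same library, but the tables come from the same libraries and are not independent. These counts were not made for all protein-coding genes, so they cannot be read as a trait of the factors. The 505-base Eef1a1-204, a non-coding processed transcript inside the gene, measured 23.7, 820 and 15.5 TPM, which was 1.06%, 23.0% and 1.05% of Eef1a1. The second table gave 0.178%, 22.5% and 0.123%. The main coding transcript Eef1a1-201 measured 2183, 2717 and 1446 TPM, so much of the excess of Eef1a1 TPM in replicate 2 lay in the short transcript.

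The same pattern occurred in Pabpc1, Eif6 and Gspt1. Pabpc1-207 (747 bases) held 5.76%, 28.8% and 10.5% of Pabpc1, Eif6-205 (402 bases) held 6.73%, 40.1% and 0.145% of Eif6, and Gspt1-204 (727 bases) held 0%, 44.1% and 2.00% of Gspt1. The main transcript of Eif6 measured 15.9, 19.5 and 12.9 TPM, a narrower range than that of the gene. For Gspt1 the main transcript was lowest in replicate 2, at 11.1, 7.25 and 8.30 TPM. These 4 examples were picked after the values were seen. Among factors whose main-transcript share ranged over more than 10 percentage points, it was lowest in replicate 2 in 12 of 23 (52.2%), and the same held for 41.7% of 3871 protein-coding genes. In Eif1, the 383-base non-coding processed transcript Eif1-202 was also highest in replicate 2, but its share was large in every library. It held 40.1%, 51.0% and 44.3% of Eif1 in the first table and 50.35%, 57.4% and 45.3% in the second. The coding transcript Eif1-201 measured 158, 176 and 111 TPM.

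**Figure D5:**
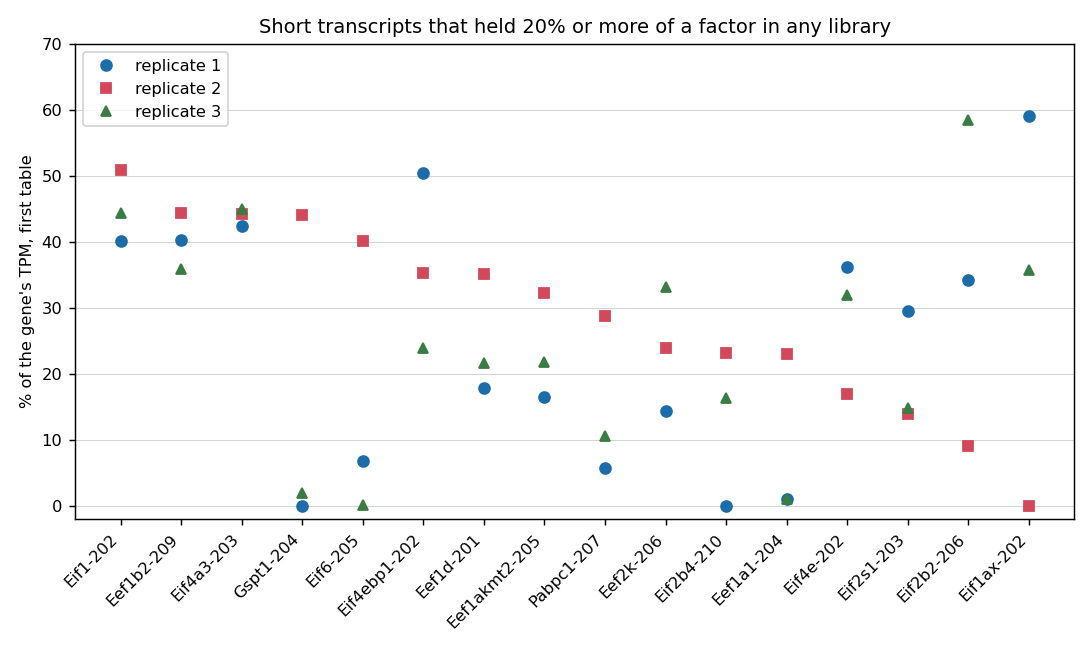
Percentage of the gene's TPM in 16 transcripts under 1000 bases that held at least 20% of a factor in at least 1 library, first transcript table, one symbol per library, ordered by replicate 2. Gspt1-204, Eif6-205, Pabpc1-207 and Eef1a1-204 stand well above both other libraries in replicate 2.

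Many translation factor mRNAs are known to begin with a 5′-terminal oligopyrimidine tract, a C followed by pyrimidines, through which mTORC1 controls their translation. RefSeq promoter windows (GRCm38.p6, 250 bases before to 50 after the annotated start) were matched by symbol or gene ID to 52 of the 73 factors, 48 of them at 1 TPM or more. A run of C followed by at least 4 of C or T within 5 bases of the start was found in 10 of these 48 (20.8%), against 20.1% of 7604 genes at 1 TPM or more and 18.3% of all 32851 windows. By this search, then, the factors held the run about as often as other expressed genes. The search depends on the exact start: within 20 bases the run was found in 41.7% of the 48 and in 49.8% of the expressed genes. Some annotated starts lay away from the start of the main transcript, by 106 bases in Eif4a1, 310 in Eif4a2 and 314 in Eef1b2. The distance was 0 in others, such as Eef1a1 and Eef2. Pabpc1 and Eef1g had no window. Windows with a long run near the start are shown for the abundant factors Eef1a1, Eif3f and Eif2s3x, with the run in capitals. They reach from 20 bases before to 20 after the annotated first base. The runs began at -5, -4 and -1 from that base, so part of each lay before it. Whether these mRNAs begin with the run was not tested. In Eef2 and Eif3k the run lay outside the 5 bases but within the 20.
Eef1a1 (chr9:78481704-78481744, minus strand): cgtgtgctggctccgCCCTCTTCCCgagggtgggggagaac
Eif3f (chr7:108934395-108934435, plus strand): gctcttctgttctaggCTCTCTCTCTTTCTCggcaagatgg
Eif2s3x (chrX:94212631-94212671, minus strand): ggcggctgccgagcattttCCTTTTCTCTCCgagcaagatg

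The E-box CACGTG, to which MYC and related factors are known to bind, was present in the windows of 12 of the 48 factors (25.0%), against 11.1% of the expressed genes and 7.15% of all windows. The motif is its own reverse complement, so both strands are covered. The 12 were Eef2, Eif4a1, Eif5a, Eif3k, Eif3a, Eif4h, Eif4g1, Eif3f, Eif4e, Eif1b, Eef1akmt4 and Eif5a2, and 8 of them were among the 20 highest factors. The motif was not counted in other genes of similar level, so no link with level can be read from the 8. The stretches are shown for Eef2, Eif4a1, Eif5a, Eif4g1 and Eif4e, with 12 bases on each side. The first base of the motif lay at -43, -189, -74 and -64 from the start in Eef2, Eif4a1, Eif5a and Eif4e and at base 16 of the transcript in Eif4g1. Eif4e and Eif4g1 each held 2 matches, of which the one nearest the start is shown.
Eef2 (chr10:81176576-81176605, plus strand): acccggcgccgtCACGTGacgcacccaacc
Eif4a1 (chr11:69672595-69672624, minus strand): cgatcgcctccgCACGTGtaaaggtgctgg
Eif5a (chr11:69921443-69921472, minus strand): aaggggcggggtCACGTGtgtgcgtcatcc
Eif4e (chr3:138527192-138527221, plus strand): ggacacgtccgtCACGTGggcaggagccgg
Eif4g1 (chr16:20672730-20672759, plus strand): ctctgcgccggtCACGTGgggcgctggctg

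The ETS-type motif CCGGAAG, searched on both strands, was present in 15 of the 48 (31.3%), against 21.7% of the expressed genes and 8.86% of all windows. A match describes letters in a window and is not evidence of binding.

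Genes that act on these factors were mostly at lower levels, with list medians from 2.89 to 15.4 TPM against 20.1 TPM for the factors. Of 9 genes for kinases and phosphatase regulators of eIF2 alpha and their targets, 8 reached 1 TPM and 1 was called in edgeR's spread test, which called 1.71% of all genes tested. That gene was Ppp1r15a, which encodes GADD34, the inducible regulator that dephosphorylates eIF2 alpha, at 603, 882 and 240 TPM (edgeR, adjusted p = 0.0115). Its mean of 575 TPM exceeded that of 72 of the 73 translation factors, and it was lowest in replicate 3. The list also held the transcription factors Atf4 (42.4 ± 10.4 TPM) and Ddit3 (38.6 ± 7.22) (SD, n = 3).

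The remaining lists of genes that act on the factors had 0 members called in edgeR's test (1.71% of all genes tested). They also had 0 at an unadjusted p under 0.05 (6.15%). All 13 genes of mTORC1 and MNK control reached 1 TPM, led by the eIF4E kinases Mknk2 (54.7 ± 21.5 TPM) and Mknk1 (35.5 ± 9.37) (SD, n = 3). Among 14 partners in cap binding, scanning and recycling, 13 reached 1 TPM and the helicase Ddx3x led at 79.1 ± 17.8. The PABPC1 regulators Paip2 and Paip1 had 29.7 ± 10.7 and 20.0 ± 3.89 TPM, and Rheb, the activator of mTORC1, had 23.3 ± 5.14 TPM (SD, n = 3). The selenocysteine factor Secisbp2l had 20.8 ± 4.11 TPM. All 10 mitochondrial translation factors reached 1 TPM, between 1.49 and 12.8 TPM, below the cytosolic set's median of 20.1. Of 9 enzymes that modify eIF5A and eEF2 with hypusine and diphthamide, 8 reached 1 TPM, with a median of 2.89 TPM.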

How the data were processed

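Total RNA-seq of the cytosolic fraction was analysed in 3 libraries of 1 group. Per the notes deposited with each library, the authors used mm10 and GENCODE M21. Their gene table and first transcript table, with expected counts (estimated counts) and TPM, were deposited as derived from transcriptome alignments, and their second transcript table, with estimated counts and TPM, as derived from reads and a transcript index. Which programs were run was not given in the sources used here. The members and gene lists were chosen with earlier results of these data known. Named genes are the 20 highest, called or table-dependent members, fixed pairs, complexes and members with 20% or more of TPM in decay transcripts. Of other pathway genes, the 10 highest and any called are named. Other factors were named after their values were seen. Counts were rounded, rows outside the annotation (at most 0.314% of counts) left out, and an intercept-only negative binomial model with trended dispersion fitted in edgeR 4.0.16 (TMM, filterByExpr). Its chi-square goodness-of-fit p-values were Benjamini-Hochberg adjusted over 12250 genes (threshold 0.05), and the script was tested on simulated data. DESeq2 1.42.0 gave alternative size factors. Levels used a pseudocount of 1 on the log2 scale. Shares, pairs, tables and motifs are descriptions. Libraries differed by a chi-square of 58.5 to 145 per degree of freedom, so none was a duplicate. No strand setting is stated, so reads of overlapping antisense genes cannot be told apart.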

Additional observations from a re-analysis of the deposited data

How the results depend on the processing

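The count of 0 factors called for spread held under every alternative run (DESeq2 size factors, no count filter, protein-coding genes only, the second table, and each library left out). The count over all genes was 115 with protein-coding genes only and 59 to 129 with 1 library left out, against 209, and these fits also tested other numbers of genes. The median member level, 4.39 on the log2(TPM + 1) scale, was 6.06 after rescaling to protein-coding TPM and 3.19 in the second table. The count of factors differing between tables was 2 at 1.5-fold, 1 with a pseudocount of 0.1 and 25 with TPM as deposited (the cause was not tested). The shares of all protein-coding genes were not counted at these settings. The decay and retained-intron share, 3.24%, was 0.280% as the median of the members' own shares. The eIF3 range, 1.77, was 3.76 without correction for length. Allowing the pyrimidine run within 20 bases raised its count from 12 to 24 of 52. The difference Eif4e minus Eif4e2, -0.28, was 0.005 without correction for length, and Eif3j1 minus Eif3j2, 0.36, was -0.61 in the second table. For the fixed pairs, leaving out 1 library kept every value within its SD. With 3 libraries the mean cannot move that far, so this does not show that the differences are stable. Without length correction, 12 of 16 pairs moved further than their SD and 1 reversed. No paired analysis was possible because there is 1 group. For the 9 factors below 0.1 TPM, depth sets how low a level could have been seen. Whether depth or absence of the RNA explains each was not tested.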
